A study of Homo sapiens with 12 samples.

Results

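The liver cancer lines Huh7 and HLF were compared for how each one's RNA changed between flat culture and embedding in Matrigel. The quantity described is the line difference: the log2 fold change of Mix-Embed over 2D in Huh7 minus the same log2 fold change in HLF. It was computed for every gene from 8 of the 12 libraries of the series, with 2 libraries, labelled as biological replicates, in each of 4 groups. The groups were Huh7 2D, Huh7 Mix-Embed, HLF 2D and HLF Mix-Embed. Both are established human hepatocellular carcinoma lines, labelled wild-type, and all groups were grown in DMEM with 10% fetal bovine serum and antibiotics. Flat cultures were taken at about 90% confluence, after 2 days. In Mix-Embed, cells were stirred into Matrigel, a basement membrane gel, over a layer of set gel, at 20000 Huh7 or 10000 HLF cells per well, and harvested on days 6 to 8. Days in culture, seeding and the gel changed together, so they cannot be told apart, and Huh7 wells received more cells than HLF wells. A positive line difference means that a gene's level moved further up, or less far down, in Huh7 than in HLF.

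Several gene systems carried the difference. Interferons are secreted alarm proteins that act through receptors, JAK kinases and the STAT and IRF9 factors, and interferon-stimulated genes are the antiviral genes these factors switch on. Ribosomal proteins and the genes of the G1/S transition are made in quantity by growing and dividing cells, the latter under E2F factors. Metallothioneins are small cysteine-rich proteins that bind zinc and copper and are induced through the metal sensor MTF1. Levels are given as CPM, the count as a share of the TMM-scaled library total, and changes as log2 values ± a standard error derived from the test. Adjusted p-values come from edgeR's quasi-likelihood test with Benjamini-Hochberg adjustment over all 19342 genes tested, and rose, fell, higher and lower are used of genes with an adjusted p under 0.05. Nothing in the labels says more of the replicates than that they are biological, so the p-values measure the spread between these libraries. Genes were named by size and by list, and list members named beyond that rule were chosen after their values were seen. In RNA from bulk cultures, expression in fewer cells and less RNA per cell cannot be told apart.

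The 8 libraries held between 13521290 and 16041906 counts. The mitochondrial ribosomal RNA share was 0.29% to 0.31% in 2D and 0.5% to 0.6% in Mix-Embed, and the protein-coding share 97.63% to 97.66% and 97.07% to 97.28%, in both lines alike; the part of these shifts in the results was not tested. Huh7 had the markers of a hepatocyte line, which summed to 36300 to 40800 CPM of the library total, whereas in HLF they were near absent, at 1.77 to 15.8. TTR and APOB were at 0 in all 4 HLF libraries. Of 12 leukocyte markers, CD163, MS4A1 and S100A8 were at 0 in all 8 libraries, and the summed level was 257 to 315 in Huh7, nearly all of it lysozyme (LYZ), and 3.41 to 9.47 in HLF. The 9 endothelial markers summed to 7.6 to 16.3. The 9 fibroblast or stellate cell markers summed to 142 to 189 in Huh7 and 360 to 401 in HLF. For the 9 cholangiocyte markers these sums were 785 to 1090 and 214 to 299.

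The response to Mix-Embed culture differed between the lines in about as many called genes upward as downward, but large differences were more often negative. The line difference was called for 3944 of 19342 genes (20.4%), 1968 with a positive value (10.2%) and 1976 with a negative one (10.2%). Of these, 684 turned in opposite directions, each turn passing its own test (3.54% of all genes): 336 rose in Huh7 and fell in HLF (1.74%) and 348 fell in Huh7 and rose in HLF (1.8%). Another 1021 passed the own test in Huh7 alone and 1761 in HLF alone, 251 moved the same way by different amounts, and 227 passed in neither line. By comparison, 903 genes moved the same way in both lines with no line difference called. The own tests called 4203 genes in Huh7 (21.7%) and 5605 in HLF (29.0%). For 9745 genes the mean over the 2D and Mix-Embed libraries was at least 5 CPM in each line, called here 5 CPM in both lines. A gene low in 1 culture could pass this minimum through the other. Across these genes, the log2 fold changes of the lines had a Pearson correlation of 0.103, a description across genes, which are not independent replicates. Among these 9745, the line difference was called higher for 1723 and lower for 1455, larger shares than over all genes tested. Differences of at least 1 on log2 were called higher for 304 and lower for 674 of all genes. Within the 9745 these counts were 85 and 211, and 608 genes turned in opposite directions. With library totals in place of TMM, the median line difference went from -0.002 to -0.072, and the share of positive values among the calls from 49.9% to 37.1%. That share was 40.0% with limma on log2(FPKM + 1). Without the second Huh7 Mix-Embed library, 2696 genes were called in Huh7.

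**Figure D1:**
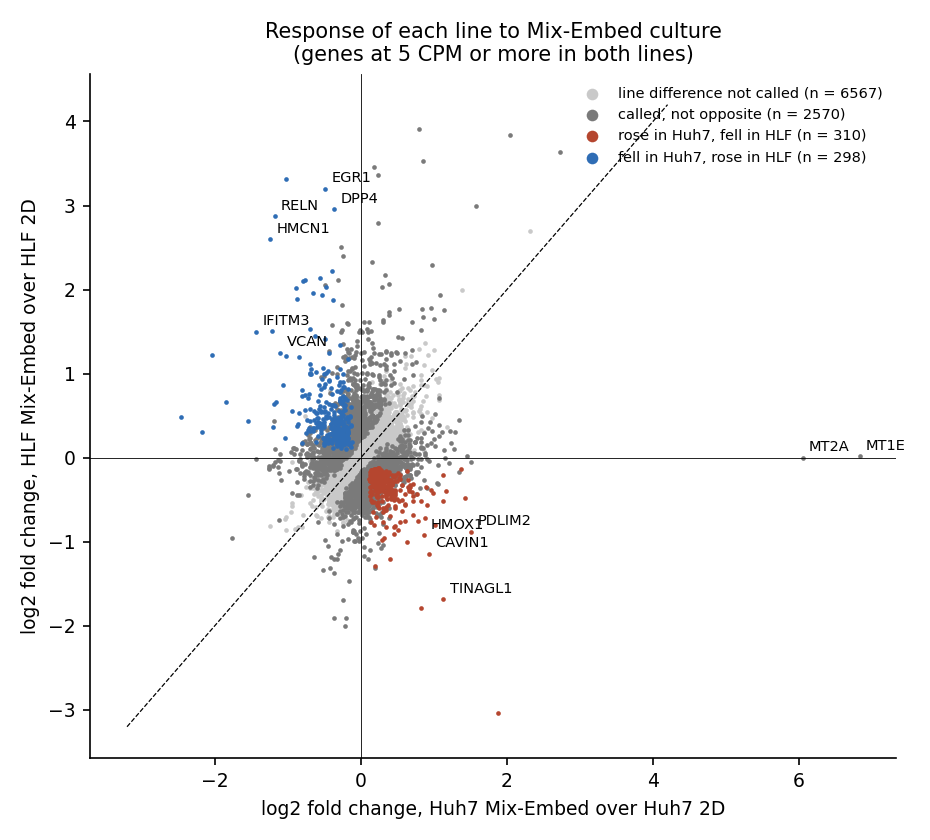
Log2 fold change of Mix-Embed over 2D in Huh7 (horizontal) and in HLF (vertical), 1 point per gene, with a dashed line at equal change. The 9745 genes had a mean of 5 CPM or more over the 2D and Mix-Embed libraries of each line. The 310 genes in red rose in Huh7 and fell in HLF, the 298 in blue did the reverse, and MT2A and MT1E stand alone at the right because they rose in Huh7 and gave values near 0 in HLF.

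Across the gene lists, negative line differences gathered in interferon-stimulated genes (28 of 39 lower, 1 higher), antigen presentation (10 of 17 lower, 0 higher), NF-kB targets (12 of 21 and 1) and lysosomal genes (13 of 24 and 1). Positive ones gathered in cytosolic ribosomal proteins (37 of 40 higher, 0 lower), G1/S and replication genes (27 of 30 and 0) and ATF4 targets (12 of 21 and 0). The shares over all genes were 10.2% each way, as given above. They were larger among genes at 5 CPM or more in both lines, at 1723 higher and 1455 lower of 9745. The directions of these 7 lists held under the 3 other scalings tried.

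**Figure D2:**
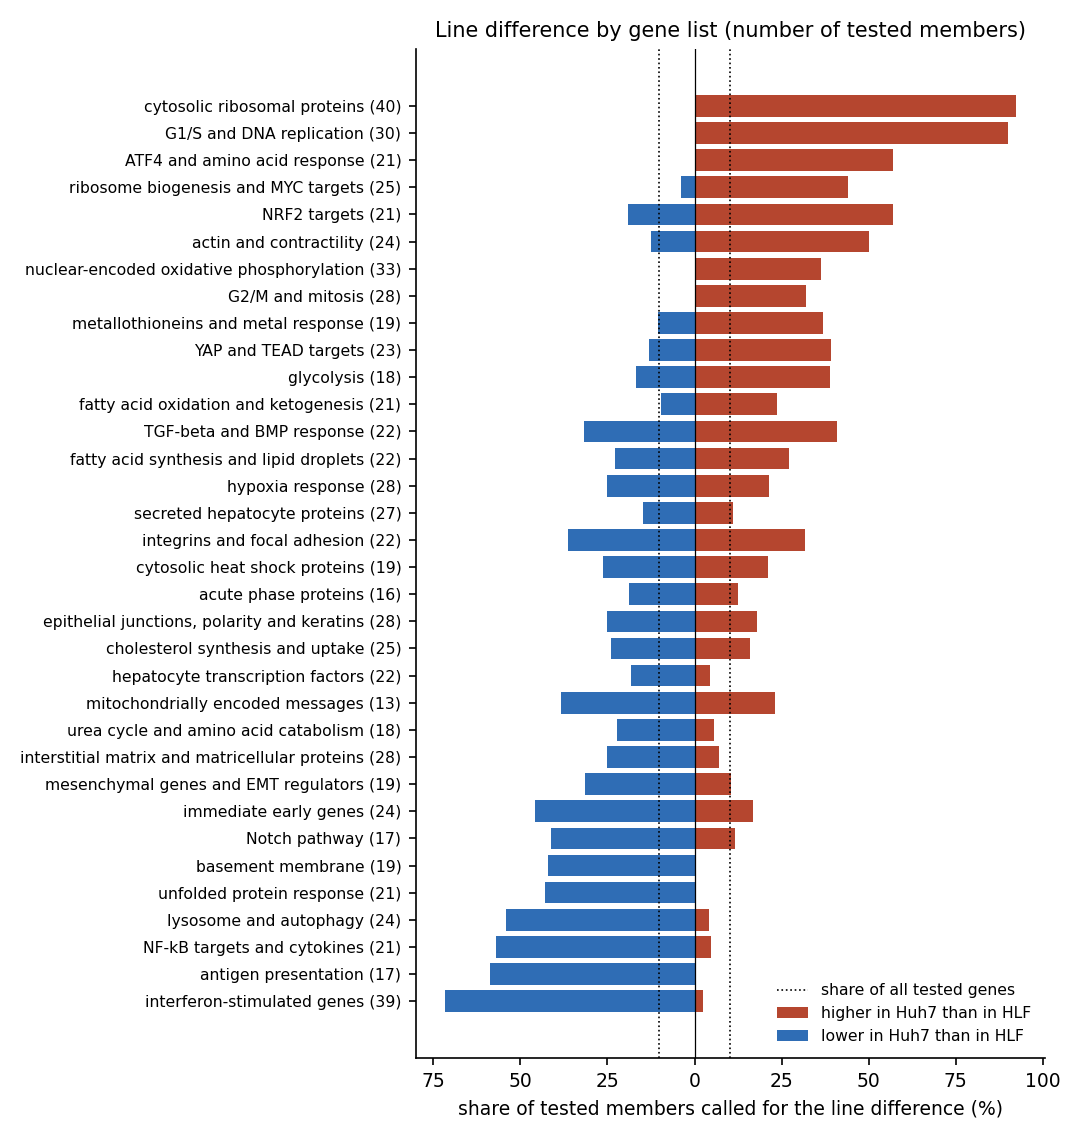
Share of each list's tested members (%) called for the line difference, with positive values in red to the right and negative ones in blue to the left; dotted lines mark the 10.2% of all tested genes in each direction. Lists with fewer than 5 calls are not drawn; ribosomal proteins stand at the top and interferon-stimulated genes at the bottom.

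Interferon-stimulated genes rose in HLF in Mix-Embed. In HLF, 37 of the 39 tested members rose and 0 fell (14.4% and 14.6% of all genes), while in Huh7 6 rose and 5 fell (11.2% and 10.6%). The median line difference was -1.77 over the 39 members and -1.54 over the 30 with more than 3 counts in every group, against -0.002 for all genes. IFITM3 encodes a membrane protein that blocks virus entry (ENSG00000142089, GRCh38 chr11:319669-327537). It stood at 83.4 and 88.3 CPM in Huh7 2D and 31.9 and 31.7 in Huh7 Mix-Embed, against 134 and 126 in HLF 2D and 370 and 368 in HLF Mix-Embed. The groups did not overlap within either line, and the turns were opposite: -1.43 ± 0.07 in Huh7 and 1.5 ± 0.05 in HLF, a line difference of -2.94 ± 0.09 (adjusted p = 2.67e-28). HERC5, the ligase that attaches ISG15 to proteins, stood at 13.9 and 13.9 CPM and then 10.2 and 9.1 in Huh7, and at 11.5 and 11 and then 46.3 and 40.6 in HLF, a line difference of -2.47 ± 0.19. The 2D levels of HERC5 were close and the Mix-Embed levels far apart; its fall in Huh7 (-0.53 ± 0.15) lost its call without Huh7 Mix-Embed replicate 2.

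Other members passed the own test in HLF and missed it in Huh7. PARP14, an ADP-ribosyltransferase, was at 53.9 and 54.5 CPM and then 52 and 44.4 in Huh7, and went from 65.6 and 65.3 to 149 and 149 in HLF (line difference -1.35 ± 0.1). ISG15, a ubiquitin-like modifier, went from 34.6 and 32.8 to 102 and 99.2 CPM in HLF, beside 8.06 and 8.21 and then 6.13 and 6.23 in Huh7, where its own test was missed (adjusted p = 0.0552). IFI6 went from 30 and 26.9 to 155 and 162 CPM in HLF (2.48 ± 0.09), and IFIT1, which binds foreign RNA ends, from 14.4 and 14.6 to 112 and 106 (2.91 ± 0.1). The antiviral 2′-5′ oligoadenylate synthetases differed in how far they rose in HLF: 1.07 ± 0.05 for OAS3, 2.82 ± 0.13 for OAS1 and 7.23 ± 0.27 for OAS2. OAS2 had no count in any Huh7 library, nor had IFI44, RSAD2 and XAF1, so no line difference could be measured for these 4, which all rose in HLF. IFITM1 had 3 counts in HLF 2D and 361 in HLF Mix-Embed, a ratio of 122 (95% counting interval 41.5 to 596). IFITM1, IFITM2 and IFITM3 are near-identical in part, so reads may have been split among them.

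Not every member followed. MX2, a dynamin-like antiviral GTPase, stood at 25.7 and 30.7 and then 39.7 and 34.7 CPM in Huh7 and at 63.4 and 61.2 and then 61.7 and 60.7 CPM in HLF, the 1 positive line difference of the list. That call was lost without HLF 2D replicate 1, Huh7 2D replicate 1 or Huh7 Mix-Embed replicate 1, with adjusted p-values of 0.0522, 0.121 and 0.13. MX1, DDX60 and USP18 rose in HLF, with line differences of -0.52 ± 0.46, -0.31 ± 0.44 and -0.06 ± 0.17 that did not pass. Opposite turns were called for 5 of the 39 members, against 3.54% of all genes, and for fewer without Huh7 Mix-Embed replicate 2.

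**Figure D3:**
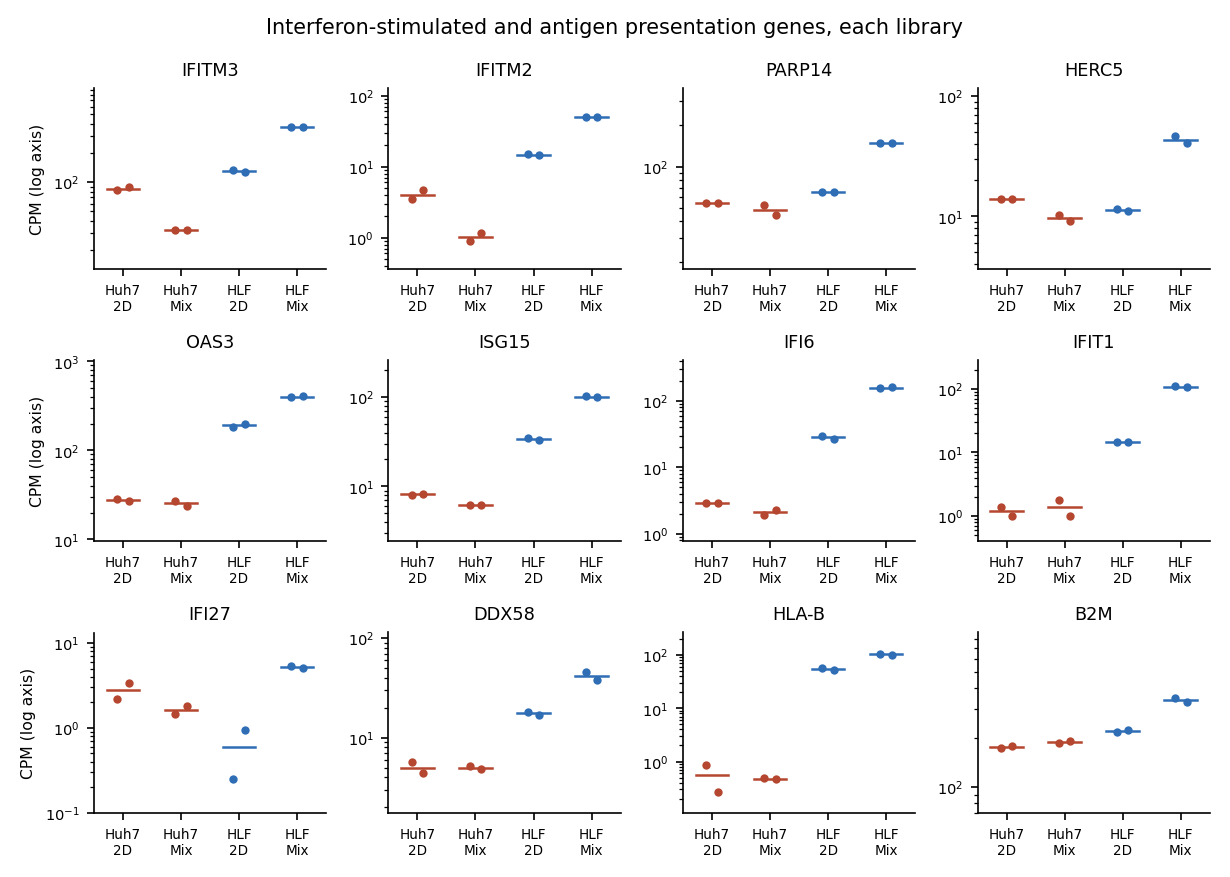
CPM on a log axis in each library for 10 interferon-stimulated genes and the antigen presentation genes HLA-B and B2M; points are libraries, bars are means of 2, red is Huh7 and blue is HLF. The blue points rise from 2D to Mix-Embed in all 12 panels, while the red points stay level or fall in most.

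The promoters of 4 of these genes are shown because they hold the interferon-stimulated response element, the site to which the complex of STAT factors and IRF9 binds. The letters searched were GAAA, any 2 bases and GAAA again, on both strands, in the 250 bases before the first RefSeq start of each gene (GRCh38.p14). They were found in 832 of 27058 promoters (3.07%) and in 18 of the 30 list members with an entry (60.0%). These were 15 of the 23 members with a called line difference and 3 of the 7 without one. A match describes letters and does not show that the site was bound. Capitals mark each match, read 5′ to 3′ on the gene's strand, and the last base printed is the one before the start:
IFITM3 (chr11:320861-321110, minus strand): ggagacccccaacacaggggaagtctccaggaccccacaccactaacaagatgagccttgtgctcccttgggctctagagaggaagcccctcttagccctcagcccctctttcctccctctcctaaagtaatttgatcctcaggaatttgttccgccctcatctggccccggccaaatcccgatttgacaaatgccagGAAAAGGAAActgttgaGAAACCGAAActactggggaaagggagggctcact
PARP14 (chr3:122680589-122680838, plus strand): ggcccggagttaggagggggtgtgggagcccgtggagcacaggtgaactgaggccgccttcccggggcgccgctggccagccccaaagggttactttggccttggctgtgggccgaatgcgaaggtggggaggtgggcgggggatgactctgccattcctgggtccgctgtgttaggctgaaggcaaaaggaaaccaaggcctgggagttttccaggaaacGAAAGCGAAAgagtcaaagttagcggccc
HERC5 (chr4:88456869-88457118, plus strand): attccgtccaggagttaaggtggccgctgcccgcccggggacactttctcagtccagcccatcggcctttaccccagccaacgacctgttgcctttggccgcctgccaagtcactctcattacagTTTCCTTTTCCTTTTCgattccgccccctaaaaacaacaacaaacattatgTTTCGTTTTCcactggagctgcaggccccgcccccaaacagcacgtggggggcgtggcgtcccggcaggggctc
OAS3 (chr12:112938224-112938473, plus strand): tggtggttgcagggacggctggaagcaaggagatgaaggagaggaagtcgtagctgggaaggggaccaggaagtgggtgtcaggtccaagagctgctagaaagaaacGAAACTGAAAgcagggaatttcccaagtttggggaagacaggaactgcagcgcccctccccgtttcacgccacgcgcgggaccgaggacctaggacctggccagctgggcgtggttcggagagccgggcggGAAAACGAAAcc

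The IFITM3 promoter held 2 matches, beginning 52 and 35 bases before the start, and OAS3 also held 2, whereas PARP14 held 1, 29 bases before it. HERC5 held 3, all read on the other strand, and the first and second of them overlap and form 1 run of capitals. The letters are those of the reference genome, not of Huh7 or HLF. In Huh7, IFITM3 fell, and PARP14 and OAS3 did not pass their own tests (adjusted p = 0.128 and 0.365). Whether the elements acted in either line was not tested.

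The pathway above these genes was examined gene by gene, from a set of ligands, receptors and sensors chosen after the list values had been seen. The interferon alpha genes and IFNW1 were not in the set, so the ligands were examined only in part. CPM values in this paragraph are group means. IFNB1, IFNL2 and IFNG had 0 counts in all 8 libraries, which at 3 counts allows up to 0.178 to 0.233 CPM per library. IFNE had 7 and 14 counts in HLF 2D and 7 and 10 in HLF Mix-Embed, with 0 in Huh7, and did not pass in HLF (-0.28, adjusted p = 0.844). IFNK and IFNL3 had 2 and 4 counts in Huh7 Mix-Embed replicate 2 and 0 in the other libraries. IFNL1 had 1 and 0 counts in HLF 2D and 6 and 3 in HLF Mix-Embed, with 0 in Huh7, and was too low to be tested. The receptor gene IFNAR1 went from 92.4 to 111 CPM in HLF (0.27 ± 0.06) and from 42.5 to 38.8 in Huh7, where it did not pass, with a line difference of -0.4 ± 0.1. IFNLR1, the lambda interferon receptor, had no counts in HLF and stood at 16.4 CPM in Huh7 2D and 16.7 in Huh7 Mix-Embed. Among the sensors of foreign RNA, DDX58 (RIG-I) rose in HLF by 1.25 ± 0.12 and IFIH1 (MDA5) by 1.43 ± 0.13. From 2D to Mix-Embed in Huh7, DDX58 went from 5.02 to 5.03 CPM and IFIH1 from 2.81 to 2.77, and neither passed. TLR3 rose by 1.45 ± 0.15 in HLF, though its line difference of -1.25 ± 0.49 did not pass (adjusted p = 0.0668). TMEM173, the DNA-sensing adaptor STING, rose in both lines and further in Huh7, from 1.14 to 5 CPM, against 27.8 to 46.9 in HLF. The kinase gene JAK1 went the other way: it fell in HLF from 429 to 291 CPM and rose in Huh7 from 84.6 to 98.8 (0.22 ± 0.06). Its line difference was 0.79 ± 0.08. STAT2 and IRF9 had line differences of -0.59 ± 0.1 and -1.65 ± 0.35, and MAVS, TBK1, TYK2 and IRF3 passed no test.

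Antigen presentation genes moved with the interferon list. Of 17 tested, 15 rose in HLF and 0 fell (14.4% and 14.6% of all genes). In Huh7 2 rose and 2 fell (11.2% and 10.6%), near those shares, and the median line difference was -0.68. B2M, the light chain of class I molecules, was at 174 and 179 and then 186 and 191 CPM in Huh7, and at 217 and 223 and then 349 and 328 in HLF (line difference -0.53 ± 0.07). HLA genes are near copies of each other and vary between people, so the split of reads among them is uncertain. The peptide trimmer ERAP1 had a line difference of -0.61 ± 0.09 and the peptide loader TAPBP of -0.43 ± 0.09. TAP1, the peptide pump, rose in HLF by 0.55 ± 0.09 from 44.8 and 45 CPM, and was near 1 CPM in Huh7, with no line difference called (-0.21 ± 0.4).

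NF-kB targets and cytokines rose in HLF in 13 of 21 tested members, against 14.4% of all genes. They fell in 6 in Huh7, against 10.6%, with 0 the other way in either line. CSF1, the macrophage growth factor, fell in Huh7 from 8.4 and 9.36 CPM to 5.22 and 4.44 and rose in HLF from 22.9 and 23.6 to 88.1 and 84.7, a line difference of -2.76 ± 0.2 (adjusted p = 7.24e-15). ICAM1, an adhesion receptor for leukocytes, fell in Huh7 from 47.3 and 47.2 CPM to 23.8 and 18.4, beside 4.4 and 3.78 and then 6.49 and 6.41 in HLF (-1.81 ± 0.24). The neutrophil chemokine CXCL5 fell in Huh7 from 126 and 117 CPM to 42.3 and 44.4, and in HLF rose from 0.248 and 0.315 to 1.3 and 1.01. TNFAIP2 had a line difference of -0.86 ± 0.1, and NFKBIA, the inhibitor that NF-kB itself induces, rose in HLF by 0.7 ± 0.08. TNFAIP3, another such inhibitor, had a line difference of 0.03 ± 0.23. The chemokine gene CCL20 stood at 217 and 218 and then 200 and 210 CPM in Huh7. Opposite turns were called for 4 of the 21 members, against 3.54% of all genes, and for fewer without HLF 2D replicate 2. Beyond the list, IL32, a cytokine gene, fell in Huh7 from 8.33 and 8.41 CPM to 4.25 and 2.88 and rose in HLF from 10.7 and 10.6 to 29.4 and 31.1 (-2.72 ± 0.23).

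Line differences of cytosolic ribosomal protein genes were small and positive, and were called for 37 of 40. In Huh7 29 of 40 rose and 0 fell (11.2% and 10.6% of all genes). In HLF 0 rose and 35 fell (14.4% and 14.6%). The median line difference of the 40 was 0.4. RPS3, a protein of the small subunit, rose in Huh7 from 1000 and 1130 CPM to 1290 and 1310 and fell in HLF from 1120 and 1130 to 875 and 879. Its line difference was 0.65 ± 0.06 (adjusted p = 6.21e-12). RPS2 rose from 1980 and 2100 CPM to 2380 and 2470 in Huh7 and fell from 1620 and 1540 to 1260 and 1240 in HLF (0.59 ± 0.05), and RPSA, also the laminin receptor gene, gave 0.55 ± 0.05. RPL8 and RPL11, of the large subunit, gave 0.55 ± 0.06 and 0.54 ± 0.06. No line difference was called for RPL15 and RPS23, among others, at 0.09 ± 0.06 and 0.06 ± 0.11. Ribosomal protein genes have many processed copies in the genome, which could take a share of the reads. Opposite turns were called for 27 of the 40, against 3.54% of all genes. They were called for 22 with library totals alone and for 15 with limma on log2(FPKM + 1).

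Genes that build ribosomes fell in HLF in 22 of 25 cases, with 0 rises, against 14.6% of all genes that fell. In Huh7 3 rose and 6 fell, against 11.2% and 10.6% of all genes. Line differences were higher for 11 and lower for 1 of the 25, against 10.2% of all genes each way. The lower one, UTP20, lost its call without HLF 2D replicate 1, HLF Mix-Embed replicate 1 or Huh7 Mix-Embed replicate 2. With limma on log2(FPKM + 1), 7 were higher. MYC, a transcription factor that drives this programme, rose in Huh7 from 91.1 and 100 CPM to 148 and 155 and fell in HLF from 119 and 112 to 87.2 and 91.1, a line difference of 1.04 ± 0.09 (adjusted p = 4.27e-13). HLF had the higher MYC level in 2D and Huh7 in Mix-Embed. NPM1, a nucleolar chaperone, rose in Huh7 from 1350 and 1360 CPM to 1520 and 1540 and fell in HLF from 1720 and 1690 to 1120 and 1070 (0.81 ± 0.05). The methyltransferase FBL gave 0.57 ± 0.08 and the assembly factor BOP1 0.69 ± 0.1.

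G1/S and DNA replication genes fell in HLF, and part of them rose in Huh7. In HLF 27 of 30 fell and 0 rose (14.6% and 14.4% of all genes). In Huh7 12 rose and 2 fell (11.2% and 10.6%), and the median line difference was 0.48. CDT1, which loads the replicative helicase, rose in Huh7 from 78.6 and 87.6 CPM to 156 and 167 and fell in HLF from 77.9 and 71.3 to 58.5 and 56.1. Its line difference was 1.34 ± 0.1 (adjusted p = 7.4e-14), with the lines close in 2D and apart in Mix-Embed. TK1, a thymidine kinase, gave 0.93 ± 0.08, and the helicase subunits MCM5 and MCM6 gave 0.74 ± 0.07 and 0.64 ± 0.07. E2F1, which switches these genes on, rose in Huh7 from 91.6 and 105 CPM to 117 and 136 and fell in HLF from 127 and 128 to 83.8 and 97.5 (0.85 ± 0.1). CDC6, which helps load the helicase, fell in HLF by 0.65 ± 0.06 and gave a line difference of 0.46 ± 0.09. CLSPN, POLA1 and CCNE2 had no line difference called, at 0.23 ± 0.1, 0.19 ± 0.1 and 0.27 ± 0.3.

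Genes of mitosis fell in HLF, and part of them fell in Huh7. In HLF 24 of 28 fell (14.6% of all genes), and in Huh7 13 fell (10.6%), with 0 rises in either. Of their line differences 9 were higher and 0 lower, against 10.2% of all genes each way, with a median of 0.12. Among the 9745 genes at 5 CPM or more in both lines, 1723 were higher and 1455 lower. MKI67, a marker of cycling cells, fell in Huh7 from 637 and 620 CPM to 565 and 534 and in HLF from 935 and 1000 to 793 and 824. Its line difference was 0.06 ± 0.06 (adjusted p = 0.537). The mitotic kinase genes AURKA and AURKB gave 0.45 ± 0.07 and 0.52 ± 0.09, as they fell in HLF and did not pass in Huh7.

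**Figure D4:**
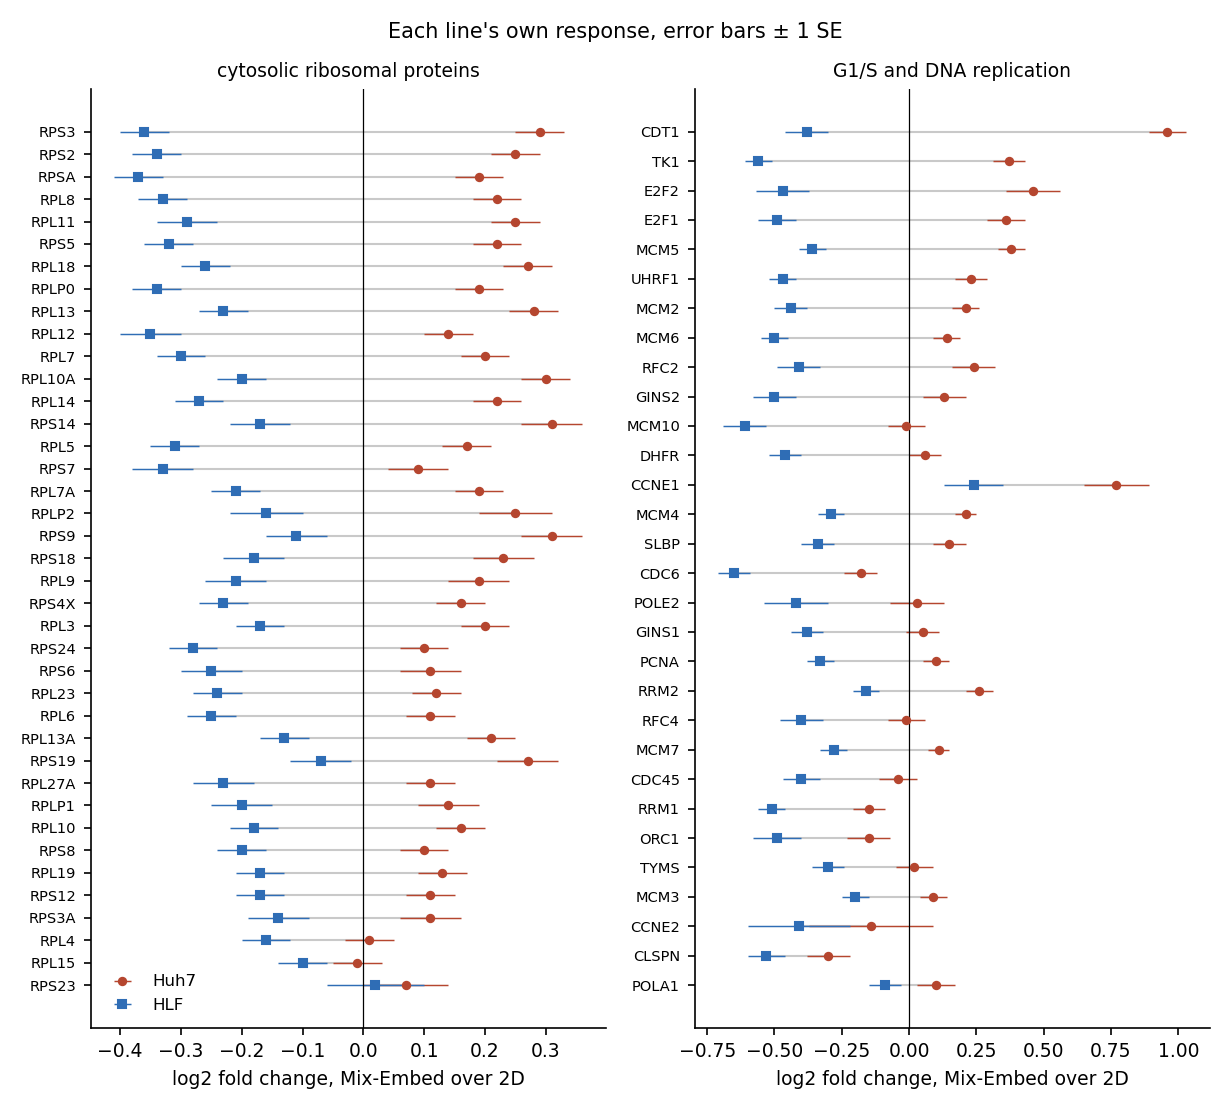
Log2 fold change of Mix-Embed over 2D in Huh7 (red circles) and HLF (blue squares), with bars of 1 standard error, for ribosomal protein genes and G1/S and replication genes, in the order of their line difference. Each grey line is the line difference; the red point lies to the right of the blue one in every row drawn.

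Promoters of 3 G1/S genes are printed for the E2F words they carry. The words TTTCCCGC and TTTGGCGC were searched on both strands of the same 250 bases, apart from the interferon letters. They were in 530 of 27058 promoters (1.96%) and in 11 of the 26 list members with an entry (42.3%). These were 10 of the 24 members with a called line difference and 1 of the 2 without one. Capitals mark the matches:
CDT1 (chr16:88803539-88803788, plus strand): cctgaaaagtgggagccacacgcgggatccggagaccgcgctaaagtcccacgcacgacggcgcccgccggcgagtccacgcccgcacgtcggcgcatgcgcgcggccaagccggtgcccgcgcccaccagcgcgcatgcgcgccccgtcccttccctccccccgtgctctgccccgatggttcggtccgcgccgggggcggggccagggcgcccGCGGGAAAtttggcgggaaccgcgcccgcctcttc
MCM6 (chr2:135876444-135876693, minus strand): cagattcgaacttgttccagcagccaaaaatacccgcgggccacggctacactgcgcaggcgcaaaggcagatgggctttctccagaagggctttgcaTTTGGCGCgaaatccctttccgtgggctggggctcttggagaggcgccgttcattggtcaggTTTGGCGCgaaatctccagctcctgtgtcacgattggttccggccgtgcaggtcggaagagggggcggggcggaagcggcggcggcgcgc
UHRF1 (chr19:4909251-4909500, plus strand): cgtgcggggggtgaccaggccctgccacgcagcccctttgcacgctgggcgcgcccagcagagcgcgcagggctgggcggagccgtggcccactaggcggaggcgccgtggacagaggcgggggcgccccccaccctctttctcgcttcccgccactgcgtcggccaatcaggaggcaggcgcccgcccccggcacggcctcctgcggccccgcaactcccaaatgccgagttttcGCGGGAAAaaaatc

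In CDT1 the match begins 35 bases before the start and in UHRF1 14 bases before it, both read on the other strand, while MCM6 held 2 matches, 152 and 90 bases before its start. UHRF1, an epigenetic cofactor of replication, rose in Huh7 from 123 and 131 CPM to 150 and 148 and fell in HLF from 231 and 234 to 161 and 173 (line difference 0.71 ± 0.08).

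ATF4 targets, which supply amino acids under stress, fell in HLF in 14 of 21 tested members with 0 rises, while in Huh7 3 rose and 3 fell. Over all genes, 14.6% fell in HLF, and in Huh7 11.2% rose and 10.6% fell, so the Huh7 counts of this list lie near the background. SLC7A5, the carrier of large neutral amino acids, went from 200 and 210 CPM to 52.3 and 56.3 in HLF and from 240 and 254 to 213 and 215 in Huh7, a line difference of 1.71 ± 0.08 (adjusted p = 2.45e-21). It fell in both lines, and the HLF groups were much further apart. STC2, a secreted glycoprotein, rose in Huh7 from 101 and 109 CPM to 135 and 130 and fell in HLF from 177 and 186 to 101 and 104 (1.16 ± 0.08). The serine synthesis enzymes PSAT1 and PHGDH gave 0.96 ± 0.07 and 0.6 ± 0.07, falling in HLF and missing the test in Huh7. The cystine carrier SLC7A11 fell by 0.42 ± 0.07 in Huh7 and by 1.31 ± 0.09 in HLF. ATF4 itself fell in HLF by 0.3 ± 0.05 and was at 436 and 464 and then 456 and 459 CPM in Huh7. The stress factor DDIT3 had a line difference of 0.19 ± 0.24.

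Antioxidant NRF2 targets gave 12 higher and 4 lower line differences of 21, against 10.2% of all genes each way. The 4 lower became 1 without Huh7 2D replicate 1, and 2 without HLF 2D replicate 1, HLF Mix-Embed replicate 1 or Huh7 Mix-Embed replicate 1, with DESeq2 or with a minimum count of 50. HMOX1, the enzyme that breaks down haem, rose in Huh7 from 18.9 and 20.6 CPM to 34.8 and 37.5 and fell in HLF from 20.8 and 22.8 to 10.9 and 12.1, a line difference of 1.79 ± 0.17 (adjusted p = 1.8e-11). The lines were close in 2D and far apart in Mix-Embed. NFE2L2, which encodes NRF2, gave a line difference of 0.54 ± 0.09 and fell in HLF by 0.32 ± 0.07. TXNRD1, a thioredoxin reductase, fell in HLF by 0.86 ± 0.05, while the glutathione synthesis gene GCLC gave 0 ± 0.13 and the list did not move as a block. Nuclear-encoded subunits of oxidative phosphorylation gave 12 higher and 0 lower of 33, with UQCRC1 of complex III at 0.55 ± 0.07. Glycolysis gave 7 higher and 3 lower of 18, where ENO1 rose in Huh7 by 0.49 ± 0.03 and gave -0.02 ± 0.03 in HLF.

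Metallothioneins rose in Huh7 in Mix-Embed from near 0, while in HLF they had no counts or, for MT2A and MT1E, a high level in both cultures. MT2A (ENSG00000125148, chr16:56608199-56609497) went from 0.666 and 1.01 CPM to 52.4 and 60.1 in Huh7 and stood at 246 and 230 and then 240 and 236 in HLF. Its line difference was 6.05 ± 0.17 (adjusted p = 9.35e-29), of which the HLF part was 0 ± 0.06. MT1E, its neighbour (ENSG00000169715, chr16:56625475-56627112), went from 0 and 0.471 CPM to 27 and 28.2 in Huh7 and stood at 59.8 and 51.3 and then 58.3 and 54.2 in HLF (6.81 ± 0.29). Both HLF groups stayed above every Huh7 library for these genes. MT1F, MT1G, MT1M, MT1A and MT1H had no count in any HLF library, and all 5 rose in Huh7. For MT1G there were 3 counts in Huh7 2D and 654 in Mix-Embed, a ratio of 239 (95% counting interval 81.5 to 1160), and MT1H was at least 10.2-fold higher. MT1 genes are close copies of one another, so the split of reads among them is uncertain.

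Genes that move metals showed smaller changes. SLC30A1, the zinc exporter that MTF1 also controls, rose in Huh7 from 23 and 20.4 CPM to 56.5 and 53.5 and in HLF from 53.2 and 54.2 to 77.2 and 70 (line difference 0.89 ± 0.11). MTF1 had a line difference of -0.32 ± 0.15 (adjusted p = 0.138). SLC39A10, a zinc importer, fell in Huh7 by 0.89 ± 0.08 and did not pass in HLF. FTL, the ferritin light chain that stores iron, rose in Huh7 from 2020 and 2070 CPM to 2340 and 2440 and fell in HLF from 1120 and 1060 to 837 and 834. SLC40A1, the iron exporter, turned the other way: it fell in Huh7 by 0.69 ± 0.1 and rose in HLF by 1.68 ± 0.31. With limma on log2(FPKM + 1), 12 members of the metal list were higher instead of 7.

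**Figure D5:**
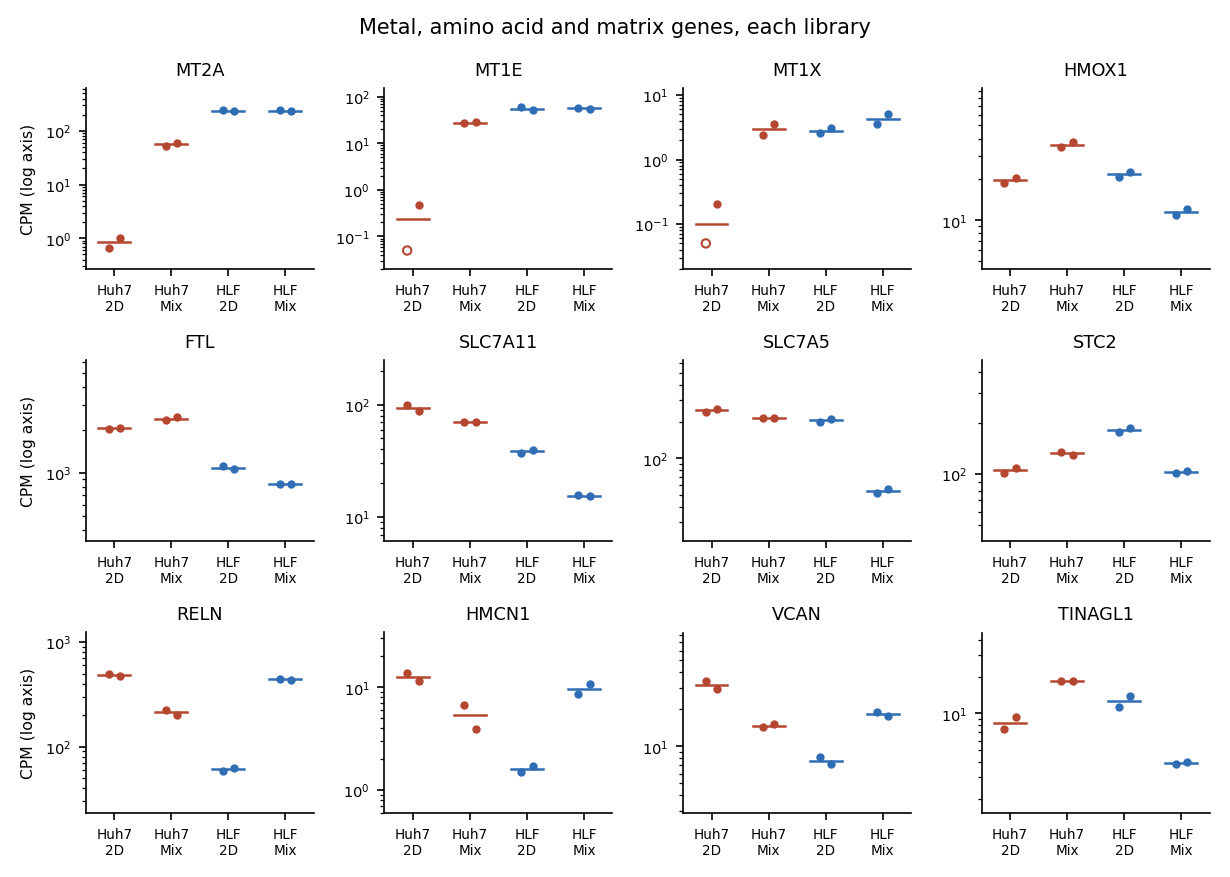
CPM on a log axis in each library for 12 metal, amino acid and matrix genes; points are libraries, open circles are libraries at 0 drawn at the axis floor, bars are means of 2, red is Huh7 and blue is HLF. MT2A and MT1E rise in red alone, SLC7A11 and STC2 are lower in blue Mix-Embed than in blue 2D, and RELN, HMCN1 and VCAN cross between the lines.

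Of the 10 lowest line differences among genes at 5 CPM or more in both lines, several belonged to secreted or matrix proteins, among them RELN, HMCN1, SERPINF2 and SERPINE2. The minimum is a mean over both cultures, and in HLF genes such as HMCN1 and DPP4 passed it only through Mix-Embed. RELN, the secreted glycoprotein reelin (ENSG00000189056, chr7:103471784-103989516), crossed over: 495 and 476 CPM became 226 and 202 in Huh7, and 57.9 and 63.2 became 449 and 438 in HLF (-4.05 ± 0.08). HMCN1, the matrix protein hemicentin, went from 13.7 and 11.6 CPM to 6.69 and 3.97 in Huh7 and from 1.49 and 1.7 to 8.68 and 10.7 in HLF (-3.84 ± 0.32). VCAN, the proteoglycan versican, fell in Huh7 by 1.1 ± 0.13 and rose in HLF by 1.25 ± 0.15. The protease inhibitor SERPINE2 rose in both, by 0.8 ± 0.11 in Huh7 and 3.91 ± 0.11 in HLF. SERPINF2, the inhibitor of plasmin, rose in HLF by 3.36 ± 0.18 to 13 and 12.3 CPM, far under its 464 and 496 in Huh7. DPP4, a surface peptidase, fell in Huh7 from 122 and 108 CPM to 87.8 and 92 and rose in HLF from 1.24 and 1.2 to 9.02 and 10.

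Basement membrane genes gave 8 lower and 0 higher line differences of 19, against 10.2% of all genes each way. The laminin chain genes LAMA5 and LAMB1 gave -0.93 ± 0.08 and -0.67 ± 0.06. LAMA5 fell in Huh7 from 314 and 347 CPM to 238 and 243 and rose in HLF from 343 and 355 to 452 and 517. COL4A5, a collagen IV chain, fell in Huh7 by 1.04 ± 0.09 and gave a line difference of -1.27 ± 0.12. COL4A2 and LAMA1 had no counts in Huh7. TINAGL1, a matricellular protein of basement membranes, went against them: it rose in Huh7 from 7.46 and 9.29 CPM to 18.3 and 18.4 and fell in HLF from 11.3 and 13.9 to 3.83 and 4.04 (2.81 ± 0.25). THBS1, thrombospondin, fell in Huh7 from 38.5 and 36.7 CPM to 9.47 and 7.08 and rose in HLF by 0.31 ± 0.06 from 260 and 277.

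Integrins split by subunit. The collagen receptor chain ITGA1 fell in Huh7 by 0.52 ± 0.1 and rose in HLF by 1.07 ± 0.1, and ITGA2 rose in HLF by 0.94 ± 0.14 with a line difference of -1.47 ± 0.2. ITGAV turned as ITGA1 did, with a line difference of -0.82 ± 0.08, and ITGB8, its partner, rose in HLF from 1.05 and 1.51 CPM to 12.7 and 15.5 and was at 7.66 and 5.86 and then 7.38 and 7.94 in Huh7. ITGA3, a laminin receptor chain, rose in Huh7 from 9.53 and 9.29 CPM to 22.9 and 21.2 and in HLF by 0.18 ± 0.04 from 1280 and 1340. ITGB1 fell in Huh7 by 0.39 ± 0.04 and did not pass in HLF. Of the 22 genes of this list, 7 line differences were higher and 8 lower, against 10.2% of all genes each way. With limma on log2(FPKM + 1) or log2(FPKM + 0.1), 4 were higher. Opposite turns were called for 5 of the 22, against 3.54% of all genes, and for 3 and 2 with those limma fits. They were also fewer without Huh7 Mix-Embed replicate 2.

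Contractile genes fell further in HLF. Of 24 actin and contractility genes, 17 fell in HLF and 11 in Huh7, against 14.6% and 10.6% of all genes. Their line differences were higher for 12 and lower for 3, against 10.2% each way. TAGLN, an actin-binding protein of smooth muscle, fell in HLF from 46.7 and 49.3 CPM to 4.51 and 4.51 and was under 2 CPM throughout in Huh7 (3.23 ± 0.42). CALD1, caldesmon, fell in HLF from 30.1 and 26.8 CPM to 7.93 and 6.35 and in Huh7 by 0.22 ± 0.05 (1.78 ± 0.11). FLNA, filamin A, was an exception: it fell in Huh7 from 155 and 162 CPM to 77 and 72.1 and in HLF by 0.27 ± 0.04 (-0.81 ± 0.06). CAVIN1, a coat protein of caveolae, rose in Huh7 from 24.2 and 25.4 CPM to 46.5 and 47.7 and fell in HLF from 963 and 994 to 440 and 448 (2.07 ± 0.09). PDLIM2, an actin-linked adaptor, rose in Huh7 by 1.51 ± 0.13 and fell in HLF by 0.88 ± 0.16. ABLIM3, another actin-binding protein, fell in Huh7 from 24.9 and 25 CPM to 7.52 and 4.51 and rose in HLF from 6.19 and 6.11 to 13 and 15.7. The targets of YAP and TEAD, which respond to cell tension, fell in HLF in 17 of 23 cases and in Huh7 in 6. Over all genes these shares were 14.6% and 10.6%. CTGF, a classic member, went against the list, rising in HLF by 0.6 ± 0.1 (line difference -0.76 ± 0.15).

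Signalling targets differed too. Of 24 immediate early genes, 11 line differences were lower and 4 higher, against 10.2% of all genes each way. EGR1, a growth factor response gene, fell in Huh7 from 41.3 and 44.4 CPM to 28.7 and 32.3 and rose in HLF from 8.8 and 8.32 to 75.6 and 82.2 (-3.7 ± 0.15). JUNB gave -2.08 ± 0.16, and DUSP6, a phosphatase induced by ERK, rose in both lines, by 0.29 ± 0.07 and 2.03 ± 0.13. JUN and ATF3 went the other way, at 0.41 ± 0.11 and 0.81 ± 0.21. JUN lost its call without Huh7 2D replicate 1 (adjusted p = 0.0853) or Huh7 Mix-Embed replicate 2 (0.0546), and ATF3 without Huh7 2D replicate 2 (0.0514). In the Notch list, the ligand JAG1 fell in Huh7 from 240 and 222 CPM to 178 and 178 and rose in HLF from 34.4 and 37.9 to 135 and 130 (-2.26 ± 0.09). The target HES1 rose in HLF from 0.434 and 0.693 CPM to 3.28 and 2.73, while the target HEY1 rose in Huh7 from 8.53 and 8.75 to 32.5 and 33.3 and did not pass in HLF. In the TGF-beta and BMP list, line differences were higher for 9 and lower for 7 of 22, against 10.2% of all genes each way. Their median was 0.02, and the members named here are among the lower ones. The BMP targets ID1, ID2 and ID3 rose in both lines and further in HLF, with line differences of -0.82 ± 0.08, -0.44 ± 0.08 and -0.62 ± 0.11. The receptor TGFBR2 fell in Huh7 by 0.68 ± 0.06 and rose in HLF by 1 ± 0.07.

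Lysosomal genes rose in HLF in 10 of 24 cases and fell in Huh7 in 11. For this and the next lists, 14.4% of all genes rose and 14.6% fell in HLF. In Huh7 11.2% rose and 10.6% fell, and line differences were called for 10.2% each way. GRN, progranulin, rose in HLF from 234 and 218 CPM to 372 and 385, beside 171 and 180 and then 203 and 195 in Huh7 (-0.56 ± 0.07), and LAMP2, a lysosomal membrane protein, fell in Huh7 by 0.5 ± 0.06 and gave a line difference of -0.67 ± 0.08. Unfolded protein response genes fell in Huh7 in 14 of 21 cases, against 6 in HLF, with 9 line differences lower and 0 higher. SEL1L, of the pathway that discards misfolded proteins, fell in Huh7 by 0.31 ± 0.06 and rose in HLF by 0.34 ± 0.06. Among hypoxia genes, which rose in 17 of 28 cases in each line, 6 line differences were higher and 7 lower. PFKFB3, a switch of glycolysis, rose in Huh7 from 85.4 and 87.1 CPM to 221 and 225, beside 208 and 197 and then 180 and 186 in HLF (1.52 ± 0.08), whereas P4HA1, a collagen hydroxylase, rose further in HLF (-0.79 ± 0.08).

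Some genes were measured in 1 line and near absent in the other, so their line difference rests on few counts. SPP1, osteopontin, rose in HLF from 23 and 21.5 CPM to 48.2 and 45.2, and had 9 counts over the Huh7 2D libraries and 0 in Huh7 Mix-Embed, which is at least 2.73-fold lower with a floor of 3 counts over the group; its call was lost without Huh7 2D replicate 2 (adjusted p = 0.0849). The chemokine receptor ACKR3 was at 5.73 and 6.93 and then 8.98 and 9.1 CPM in Huh7, and had 17 counts in HLF 2D and 0 in HLF Mix-Embed, at least 5.57-fold lower, a call lost without HLF 2D replicate 2 (0.118). TRIM22, an interferon-stimulated ligase, rose in HLF from 0.186 and 0.441 CPM to 9.91 and 10.9, with 0 to 0.471 CPM in Huh7, and lost its call without Huh7 2D replicate 2 (0.294).

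SLC13A5, the citrate carrier, stood at 262 and 256 and then 273 and 274 CPM in Huh7, and its 9 counts in HLF 2D and 0 in HLF Mix-Embed make it at least 2.95-fold lower there. PDE6B had 0 counts in Huh7 2D and 9 in Mix-Embed, at least 3.29-fold higher, beside 10.7 and 10.3 and then 12.6 and 12.5 CPM in HLF, a call lost without either Huh7 2D library (adjusted p = 0.0628 and 0.0564). Of the genes measured in both lines, 4 more stood at the extremes. PADI2, which converts arginine to citrulline in proteins, rose in Huh7 from 57 and 54.9 CPM to 98.8 and 98.7 and fell in HLF from 29.2 and 29.3 to 7.93 and 8.91 (2.61 ± 0.14). DHRS11, a dehydrogenase, rose in Huh7 from 18.2 and 19.5 CPM to 52.9 and 48.2 (1.91 ± 0.16). CASC10 gave 1.82 ± 0.23, with opposite turns of 1.02 ± 0.19 and -0.8 ± 0.13. KIF5C, a kinesin motor, fell in Huh7 from 45.1 and 44.4 CPM to 7.1 and 9.18 and stood at 4.09 and 4.6 and then 5.74 and 6.41 in HLF (-2.95 ± 0.24).

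The other gel culture of the series, Inject-Embed, gives values of its own, which share the 2D libraries with those above and are therefore not independent of them. For the line difference of Inject-Embed over 2D, 11.7% of all genes were positive and 13.1% negative. Set beside the Mix-Embed counts, interferon-stimulated genes had 1 higher and 20 lower against 1 and 28, G1/S genes 21 and 0 against 27 and 0, and ribosomal proteins 8 and 4 against 37 and 0. Glycolysis had 0 and 15 against 7 and 3. The difference between the cultures was not tested.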

How the data were processed

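Poly-A RNA of 12 libraries was sequenced as paired-end reads, and the 8 libraries of 2D and Mix-Embed culture were compared here. The authors deposited a raw count and an FPKM value per gene and library; the submitters' processing notes name FastQC, Trimmomatic, STAR 2.7.9a, featureCounts and GRCh38 (hg38), without their order, settings, strand mode or annotation release. The deposited FPKM equalled count over gene length and library total within 1e-06 for all 167453 values of at least 20 counts. Reads of overlapping or antisense genes could not be told apart. Of 58735 gene IDs, 99.1% matched a symbol.

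Counts were tested with edgeR 4.0.16 (quasi-likelihood, TMM, filterByExpr at a minimum count of 10, Benjamini-Hochberg at 0.05) on all 12 libraries as 6 group means, which share 1 estimate of the spread. The standard error is the log2 value over the square root of F. The fit was tested on simulated data. Alternatives were RLE, library totals alone, TMM within each line, no filter, a minimum count of 50, the 8 libraries alone, DESeq2 1.42.0, limma 3.58.1 on log2(FPKM + 1) and log2(FPKM + 0.1), a replicate block, a prior count of 2 and each library left out. Floors and intervals cover counting error alone, since the reads carry no molecular identifiers.

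Named protein-coding genes had adjusted p under 0.05 and were the 10 highest and 10 lowest line differences at 5 CPM or more in both lines, the first 6 opposite turns each way, the 3 extremes each way with under 1 CPM in 1 line, and per list up to 4 smallest p-values and 2 opposite members, of which a selection is given. These CPM limits apply to the mean over the 2D and Mix-Embed libraries of each line. The comparison and the 45 lists were chosen with earlier results of these data known. Some members of the lists are not reported here.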

Additional observations from a re-analysis of the deposited data

Results flagged for a closer look

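The lines' responses differed by the test of the difference itself in 3944 genes. Among the genes named for opposite turns, each with a called fold change in both lines, the difference was positive for TINAGL1 (2.81), CAVIN1 (2.07), PDLIM2 (2.39), HMOX1 (1.79), PADI2 (2.61) and CASC10 (1.82). It was negative for IFITM3 (-2.94), HMCN1 (-3.84), ABLIM3 (-3.26), IL32 (-2.72), RELN (-4.05) and VCAN (-2.35). No other result was singled out, as groups of 2 libraries are too small for a search for outlying samples.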

How the results depend on the processing

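The count of 3944 called line differences ranged from 3073 to 3765 with each library left out (1466 to 1925 higher, 1543 to 1840 lower) and from 3255 to 4228 under the other 11 settings. With each library left out, Huh7 calls ranged from 2696 to 4196 (1376 to 2092 higher, 1320 to 2104 lower), HLF calls from 4098 to 5908 (2034 to 2914 higher, 1979 to 2994 lower) and opposite turns from 466 to 677. With limma, HLF genes called lower numbered 1871 on log2(FPKM + 1) and 1681 on log2(FPKM + 0.1), and opposite turns 450 on the latter; the cause was not tested. Of 216 named genes, 3 reversed, all with limma on log2(FPKM + 1): F2 to 0.12, KRT19 to 0.05 and PDE6B to -0.14. Counted by gene, 39 of the 216 lost their call without a change of sign in at least 1 of the other 11 settings. More of the 216 did so in at least 1 fit with a library left out. The other 11 settings kept 2285 of 2371 values on their side of the threshold, and left-out libraries 1588 of 1728. Replicate differences of same-numbered libraries were nearly uncorrelated between groups (0.05, 0.03, -0.02 and 0.02 over 11863 genes). This cannot exclude a shared batch that touched few genes or was small beside the counting error. The fit with the replicate block called 3839 genes, 3812 of them among the 3944. Over the 12 libraries of the fit, 3 counts equal 0.178 to 0.255 CPM, and 159 called genes had a group at 3 counts or fewer. A line difference could not be measured where a line had no counts.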

Other observations

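Of 27 tested secreted hepatocyte proteins, 5 rose and 3 fell in HLF, against 14.4% and 14.6% of all genes. In Huh7 13 rose and 7 fell, against 11.2% and 10.6%. AFP, the fetal serum protein, stood at 0.867 and 0.252 CPM in HLF 2D and 9.7 and 7.07 in HLF Mix-Embed, against 25800 and 24300 and then 23400 and 23100 in Huh7, a line difference of -3.97 ± 0.21. SERPINA1, the protease inhibitor alpha-1 antitrypsin, rose in HLF from 1.24 and 0.819 CPM to 3.83 and 4.99, and complement C3, of the acute phase list, from 10.5 and 10.9 to 30.7 and 29.6. APOB, one of the most abundant hepatocyte messages in Huh7 at 8410 and 7640 CPM in 2D, had 0 counts in all 4 HLF libraries. FGB, the fibrinogen beta chain, went the other way: it fell in HLF from 167 and 166 CPM to 46.7 and 41.8 and in Huh7 from 1170 and 1160 to 924 and 877 (1.54 ± 0.07). SOCS3, the feedback inhibitor of cytokine signalling, fell in Huh7 from 12.3 and 15.8 CPM to 4.94 and 4.59 and rose in HLF from 64.7 and 63.3 to 83.9 and 89.2.

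TXNIP, which binds thioredoxin and restrains glucose uptake, rose in both lines, from 6.66 and 4.44 CPM to 36.6 and 37.1 in Huh7 and from 20.8 and 16.8 to 246 and 222 in HLF. Its line difference of -0.91 ± 0.18 lost its call without Huh7 2D replicate 1 (-0.59, adjusted p = 0.0601). KRT8, a keratin of simple epithelia, rose in Huh7 from 640 and 691 CPM to 780 and 765 and fell in HLF from 3710 and 3610 to 2200 and 2290 (0.92 ± 0.05). HMGCS1, of cholesterol synthesis, fell in Huh7 from 1120 and 1050 CPM to 839 and 815 and rose in HLF from 69.6 and 74.7 to 82.9 and 92.7 (-0.68 ± 0.07). The cholesterol list as a whole had 4 higher and 6 lower line differences of 25, against 10.2% of all genes each way. With library totals alone it had 1 and 9.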
